A study of Gallus gallus with 12 samples.

Results

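Chromosome W is the chromosome that hens carry and cocks lack, and its genes were described here as a group in growing feather follicles. The members were all rows of the expression table placed on chromosome W of the chicken assembly GRCg6a, which gave 124 loci of 24353 genes. Of these, 14 carried a label in the table, 5 of them a gene symbol (Wpkci-7, UBE2R2, SPIN1W, Smad7b and NIPBLL) and 9 the label of a small RNA. All other W loci are given by their Ensembl identifier, with no gene name and no role.

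Sex in birds is set by a Z and a W chromosome, with hens ZW and cocks ZZ. Both descend from the same pair of autosomes, and most genes of the ancestral pair have been lost from W. The W genes that remain are mostly dosage-sensitive genes that act in many tissues, such as regulators of transcription, chromatin and protein turnover, and most of them have a related copy on Z, their gametolog. W transcripts are therefore found in many tissues of hens and serve as a molecular test of sex.

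The follicles were plucked from the nape of F3 birds of a Huiyang Bearded by White Leghorn cross. They formed 4 groups of 3 libraries: yellow feather follicles at the 11-week age, white feather follicles at the 11-week age, yellow feather follicles at the 7-week age and white feather follicles at the 7-week age. By the study's genotyping, every bird sampled had no recessive white allele and carried 1 or 2 Dominant white alleles. All white birds at 11 weeks had 2 Dominant white alleles, while each other group held birds with 1 and birds with 2. At both ages more yellow than white birds had 1, so colour and this allele number cannot be fully told apart. Every bird had a single Z copy of the Silver locus, without the Silver allele, so all groups share the genotype of a hen at a Z-linked locus. The labels do not say whether libraries of the same number at both ages came from the same bird, so the p-values measure the spread between libraries, which may include technical spread.

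Expression was given as FPKM, which corrects fragment numbers for gene length and for library size, and its sum over all genes was 640571 to 711831 in 11-week libraries and 700237 to 830214 in 7-week libraries. The number of reads behind a single value is not known from FPKM, and a gene at exactly 0 is described as listed at 0. As a check of the labelled tissue, the epidermal keratin gene KRT5 was at 577 to 949 FPKM and the collagen gene COL3A1 of the dermal pulp was at 109 to 361 FPKM in the 12 libraries. Another keratin gene, KRT75, was at 0.212 to 0.664 FPKM. Of the muscle genes, the myosin gene MYH1A did not pass 0.00431 FPKM in any library. ACTA1 was at 8.31 to 31.4 FPKM and TNNI1 at 1.38 to 11.1 FPKM.

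Of the 124 W loci, 40 were listed at 0 in all 12 libraries, 33 were above 0 in all 12, and 51 were above 0 in some. A mean of at least 0.1 FPKM was reached by 34 W loci, which is 27.4% of them, against 59.8% of all genes in the table. A mean of at least 1 FPKM was reached by 23 W loci (18.5%, against 46.2% of all genes), and a mean of at least 10 FPKM by 8. The W chromosome thus had a small expressed set and a large remainder listed at 0 or barely detected in these libraries.

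The 11-week libraries had 51 to 58 W loci above 0 (mean 54.5 ± 2.59, SD, n = 6), and the 7-week libraries 41 to 52 (45.8 ± 3.66, SD, n = 6). By colour, the number was 52, 55 and 58 in yellow and 51, 55 and 56 in white follicles at 11 weeks. At 7 weeks it was 41, 44 and 52 in yellow and 45, 46 and 47 in white follicles. The ages overlapped in a single 7-week yellow library, replicate 4, and the colours overlapped at both ages. Over all genes, 16226 to 16665 were above 0 in 11-week libraries, against 15518 to 16020 in 7-week libraries.

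A presence in 1 age or 1 colour alone was seen for 23 W loci, and none of their values passed 0.140 FPKM. Of these loci, 20 were above 0 in 11-week libraries alone and 2 in 7-week libraries alone, while 11 were above 0 in yellow libraries alone and 10 in white libraries alone. Among the 23, 16 were above 0 in 1 library alone, which places them in 1 age and 1 colour by definition. The share of all genes present in this way was not computed. At such low values a presence in some libraries cannot be told apart from the sampling of rare reads. No W locus of a mean of at least 1 FPKM was listed at 0 in any library.

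No library lacked W expression. All 23 W loci with a mean of at least 1 FPKM were detected in all 12 libraries. The same held for all but 1.42% of all genes with such a mean. The lowest value of these 23 W loci in any library was 0.591 FPKM. The lowest value among them was 1.32 FPKM in yellow and 1.20 FPKM in white follicles at 11 weeks, and 0.604 FPKM in yellow and 0.591 FPKM in white follicles at 7 weeks. This is the pattern of hens, and no library stood apart as one without a W chromosome. The data hold no library labelled as a cock, so the level that reads from Z copies alone would leave on W loci was not measured. DMRT1, the Z-linked gene needed for testis development, was at 0.0944 FPKM or less in every library. Its level in follicles of cocks was not measured either, so this value does not tell the sexes apart.

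**Figure D1:**
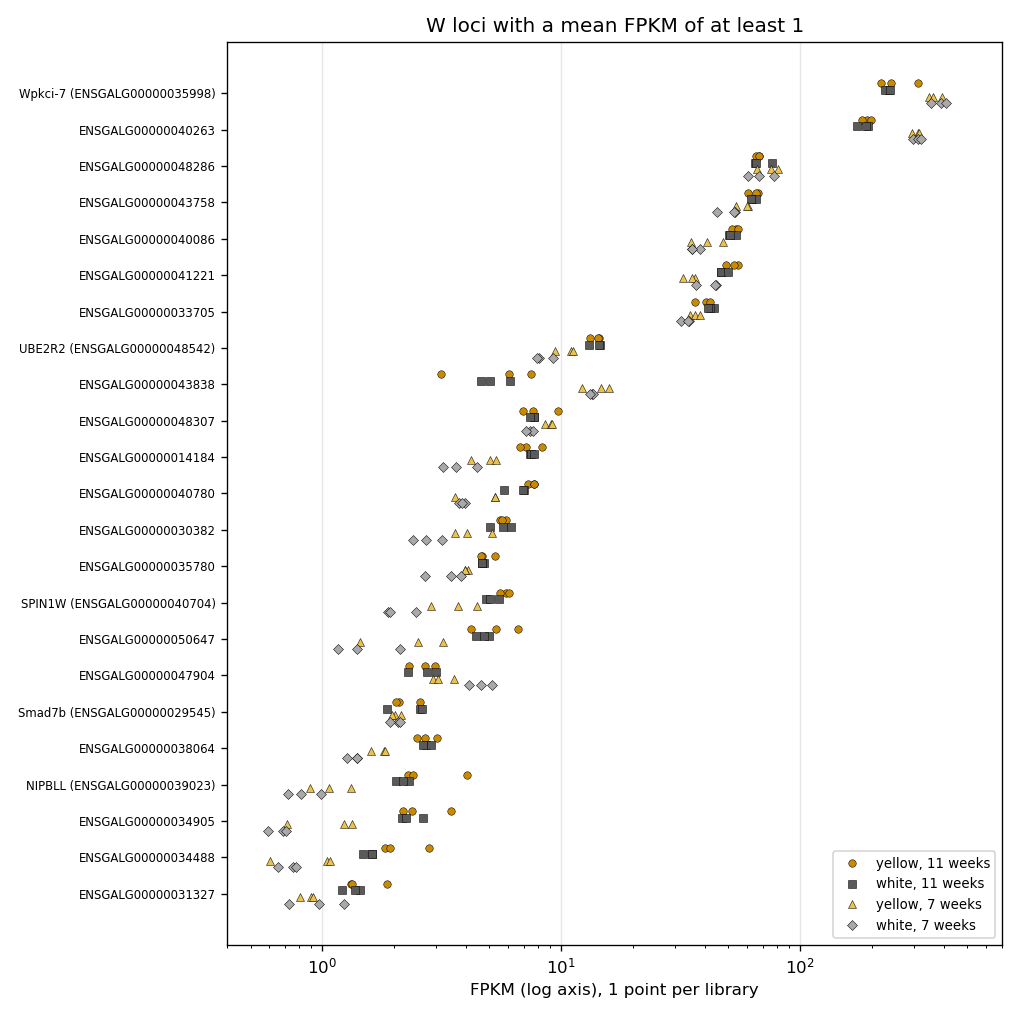
FPKM on a log axis for the 23 W loci with a mean of at least 1 FPKM, 1 point per library, with yellow 11-week (circles), white 11-week (squares), yellow 7-week (triangles) and white 7-week (diamonds) follicles from top to bottom within each locus. Every locus has points from all 12 libraries, and the lowest point of the plot is at 0.591 FPKM.

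Wpkci-7 (ENSGALG00000035998, W:1840622-1896773) had the highest level of the W loci. The RefSeq gene table for the assembly GRCg7b gives Wpkci-7 as a synonym of HINTW, the W-linked relative of the histidine triad gene HINT1, which is present in many near-identical copies on W. It was at 313, 217 and 240 FPKM in yellow and 236, 227 and 237 FPKM in white follicles at 11 weeks. At 7 weeks it was at 391, 346 and 359 FPKM in yellow and 389, 354 and 407 FPKM in white follicles. All 7-week libraries were above all 11-week libraries, and the yellow 11-week replicate 1 was the highest of its age. How reads were shared among near-identical copies is not given in the sources used here, so this level is uncertain.

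ENSGALG00000040263 (W:2397235-2407132) was next, at 191, 197 and 181 FPKM in yellow and 173, 193 and 189 FPKM in white follicles at 11 weeks. At 7 weeks it was at 311, 315 and 295 FPKM in yellow and 298, 310 and 321 FPKM in white follicles. The colours overlapped at each age, and the ages did not overlap. Its values were below those of Wpkci-7 at each age without overlap.

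The span of ENSGALG00000040263 holds 4 small RNA loci of the Rfam family RF00151. The table has 4 other loci of that label and all 4 lie on Z inside RPL17 (ENSGALG00000036774), a gene for a protein of the large ribosomal subunit. The shared label is a description of position, and the table gives ENSGALG00000040263 no gene symbol. RF01191 was likewise found only on W, 1 locus inside ENSGALG00000040780, and on Z, 2 loci. The microRNA locus gga-mir-7b lies within ENSGALG00000040086. All 9 small RNA loci on W were listed at 0 in every library. The study's methods describe no small RNA library, so these values do not show whether the small RNAs were present.

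After a gap, 5 loci without a symbol followed with means between 37.8 and 69.6 FPKM. They were ENSGALG00000048286 (W:1871808-1874957), which overlaps Wpkci-7, ENSGALG00000043758, ENSGALG00000040086, ENSGALG00000041221 and ENSGALG00000033705. ENSGALG00000048286 was at 64.4 to 76.5 FPKM at 11 weeks and 60.7 to 81.2 FPKM at 7 weeks, overlapping ENSGALG00000043758 at 11 weeks (60.2 to 66.4 FPKM) but not at 7 weeks (45.1 to 60.3 FPKM). ENSGALG00000033705 was the lowest of the 5, at 36.4 to 43.4 FPKM at 11 weeks and 31.7 to 38.0 FPKM at 7 weeks. The sources used here do not say that reads were counted by strand, so overlapping loci may share reads, and 3 of the 23 loci overlap another W locus with a mean of at least 0.1 FPKM.

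UBE2R2 (ENSGALG00000048542, W:67957-141475), which encodes a ubiquitin-conjugating enzyme, was the eighth in order. Its mean of 11.7 FPKM stood below the 5 loci above it in every library. The other named genes were lower. SPIN1W (ENSGALG00000040704, W:5944391-6052596), a copy of the gene for the histone reader spindlin 1, had a mean of 4.16 FPKM. Smad7b (ENSGALG00000029545, W:2602131-2628699), a relative of the gene for the inhibitory SMAD of TGF-beta signalling, had a mean of 2.16 FPKM. NIPBLL (ENSGALG00000039023, W:4790076-4947834), which resembles the gene for the cohesin loader NIPBL, had a mean of 1.75 FPKM. From the ninth locus down, neighbours in the order overlapped over the 12 libraries.

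Over the 12 libraries, the highest value of a locus was 1.34 to 5.86 times its lowest among the 23 W loci, with a median of 2.15. The same median over all genes with a mean of at least 1 FPKM was 2.46. In FPKM as deposited, the steadiest W loci were ENSGALG00000048286 (1.34 times), ENSGALG00000033705 (1.37 times), ENSGALG00000048307 (1.40 times) and Smad7b (1.41 times). With median-of-ratios scaling each was lower at 11 weeks, with differences of mean FPKM of -25.9, -5.73, -2.81 and -0.430 in that order. A two-sided exact permutation test gave p = 0.00216, 0.00216, 0.00216 and 0.00866 for these. Smad7b was at 2.08, 2.04 and 2.55 FPKM in yellow and 1.86, 2.55 and 2.62 FPKM in white follicles at 11 weeks, and at 2.02, 1.95 and 2.14 FPKM in yellow and 2.08, 2.12 and 1.92 FPKM in white follicles at 7 weeks. Its 4 groups overlapped each other. ENSGALG00000041500, just under a mean of 1 FPKM and chosen after its values were seen, was at 0, 0 and 4.29 FPKM in yellow and 0.696, 0 and 0 FPKM in white follicles at 11 weeks, and at 3.35, 0.634 and 0.520 FPKM in yellow and 0.987, 0.709 and 0.393 FPKM in white follicles at 7 weeks. Single libraries set its level in the yellow groups. Among the 23 loci, the widest ratios belonged to ENSGALG00000034905 (5.86 times), ENSGALG00000050647 (5.70 times) and NIPBLL (5.60 times).

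The summed FPKM of all W loci was 773 to 872 (mean 794 ± 38.2, SD, n = 6) in 11-week libraries and 966 to 1028 (988 ± 26.0, SD, n = 6) in 7-week libraries, with no overlap. As a share of all FPKM it was 0.109 to 0.126% at 11 weeks and 0.116 to 0.140% at 7 weeks, and these ranges overlapped. Wpkci-7 and ENSGALG00000040263 together made up 54.4% of the sum on average at 11 weeks and 69.1% at 7 weeks. Without these 2 loci the order of the ages turned round, with sums of 352 to 368 (362 ± 7.72, SD, n = 6) at 11 weeks and 285 to 325 (305 ± 17.7, SD, n = 6) at 7 weeks. The sum without them was chosen after seeing the data.

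**Figure D2:**
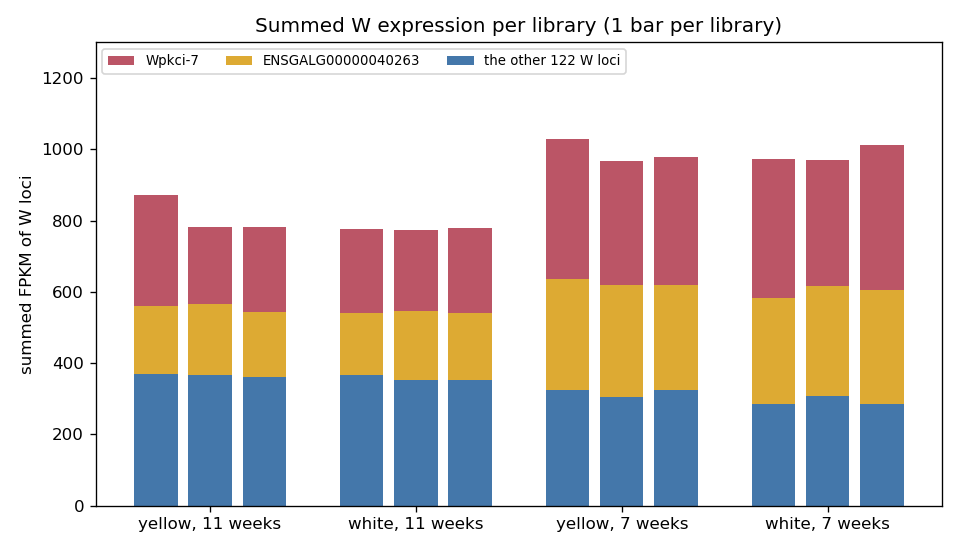
Summed FPKM of the W loci in each library, 1 bar per library in replicate order within each group, split into Wpkci-7 (top), ENSGALG00000040263 (middle) and all other W loci (bottom). The 11-week bars reach 773 to 872 and the 7-week bars 966 to 1028, while the bottom segments are taller at 11 weeks (352 to 368) than at 7 weeks (285 to 325).

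Of the 34 W loci expressed highly enough to be compared, 26 were higher at 11 weeks than at 7 weeks (20 with median-of-ratios scaling and 19 with quantile normalization), and the 2 most abundant were lower. Ages were compared with limma on log2(FPKM + 0.1), averaging the differences of both colours, for loci with a mean of at least 0.1 FPKM. This scale understates the change of low genes. The study's thresholds for a call were used (adjusted p no higher than 0.05, and a log2 fold change of 1 or more in size), and both were passed by 8 W loci in the direction of higher at 11 weeks and by 1 in the direction of lower, so 9 of 34, beside 28% of all 14553 genes tested (25% higher and 2.96% lower). By adjusted p alone, 24 W loci were higher and 4 lower at 11 weeks, so 28 of 34, beside 51.9%, 16.9% and 68.8% of all genes. An unadjusted p under 0.05 was found for 29 W loci, beside 71.1% of all genes. In FPKM as deposited, the ages did not overlap for 16 W loci higher and 3 lower at 11 weeks (6 libraries each). This stood beside 37.2% and 10.7% of all genes. The count was not made under other scalings, where some loci differed. With median-of-ratios scaling, two-sided exact permutation tests gave p = 0.106 for UBE2R2 and 0.013 for SPIN1W. Groups without overlap give 0.00216, which NIPBLL reached under both scalings. ENSGALG00000048286 and ENSGALG00000048307, lower at 11 weeks, reached it only with median-of-ratios scaling.

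These shares stand on a shift of the whole table, since the median log2 fold change over all genes was 0.44 and over the 34 W loci 0.57. Relative to the median of all genes, a comparison chosen after seeing the data, 20 W loci were higher and 14 lower at 11 weeks, against 26 and 8 as given (70% of all genes tested were higher). The shift depended on the scaling: all genes called were 3640 higher and 431 lower with FPKM as deposited, 2276 higher and 1527 lower with median-of-ratios scaling, and 1543 higher and 1283 lower with quantile normalization. Under median-of-ratios scaling the calls among W loci were 3 higher and 3 lower, and under quantile normalization 0 higher and 4 lower. A rise at 11 weeks below therefore describes FPKM as deposited, and for W loci the value relative to the median of all genes is given with it.

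NIPBLL was at 2.03, 2.29 and 4.02 FPKM (lowest, median and highest) at 11 weeks and at 0.717, 0.938 and 1.31 FPKM at 7 weeks. All 11-week libraries were above all 7-week libraries, and yellow replicate 3 was the highest. Its log2 fold change was 1.29 (SE 0.17, adjusted p = 4.56e-05 from limma), or 0.85 relative to the median of all genes, and 0.32 with quantile normalization (adjusted p = 0.0572 from limma). The call was lost under 3 of the 24 alternatives run, quantile normalization among them.

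ENSGALG00000027170 (W:365039-723920) had the largest rise as a log2 fold change of FPKM + 0.1, at 1.52 (SE 0.24, adjusted p = 0.000163 from limma). It did not have the largest ratio of mean FPKM. It was at 0.649, 0.783 and 1.21 FPKM at 11 weeks and 0.101, 0.222 and 0.408 FPKM at 7 weeks. ENSGALG00000035785 (W:2140282-2214915) was at 0.508, 0.678 and 0.784 FPKM at 11 weeks and at 0.105, 0.174 and 0.261 FPKM at 7 weeks (1.47, SE 0.19). Both are low-level loci whose ages did not overlap, and relative to the median of all genes they stood at 1.08 and 1.03. ENSGALG00000034905 (W:5302802-5316624) was at 2.15, 2.31 and 3.46 FPKM at 11 weeks and 0.591, 0.705 and 1.34 FPKM at 7 weeks (1.46, SE 0.18, or 1.02 relative to that median). ENSGALG00000050647 (W:263516-290094) was at 4.20, 4.86 and 6.60 FPKM at 11 weeks and at 1.16, 1.77 and 3.19 FPKM at 7 weeks (1.38, SE 0.21, or 0.94 relative to it). ENSGALG00000034488 (W:5154796-5259594) was at 1.48, 1.72 and 2.80 FPKM at 11 weeks and at 0.604, 0.766 and 1.08 FPKM at 7 weeks (1.10, SE 0.17, or 0.66 relative to it). In FPKM as deposited, the ages did not overlap in any of these 5 loci. With median-of-ratios scaling ENSGALG00000050647 overlapped (two-sided exact permutation p = 0.00433). With quantile normalization all 5 were below the fold threshold, at 0.13 to 0.65. For ENSGALG00000034488 this was 0.13 (adjusted p = 0.394 from limma), and its call was also lost with median-of-ratios scaling (0.69), with a pseudocount of 1 (0.65) and without yellow replicate 3 of 7 weeks (0.98). ENSGALG00000050647 was likewise below the fold threshold with median-of-ratios scaling (0.95).

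The other calls in this direction rested on low or scattered values. ENSGALG00000047355 was at 0 to 0.993 FPKM at 11 weeks and at 0 to 0.246 FPKM at 7 weeks, and ENSGALG00000046681 was at 0.745 to 1.70 FPKM at 11 weeks and at 0.174 to 0.924 FPKM at 7 weeks. Their log2 fold changes were 1.05 (SE 0.33, adjusted p = 0.0146 from limma) and 1.02 (SE 0.34, adjusted p = 0.0189 from limma), and in both the ages overlapped. Relative to the median of all genes these were 0.61 and 0.57, and both calls were lost with median-of-ratios scaling (0.88 and 0.63) and with quantile normalization (0.60 and 0.11). ENSGALG00000047355 reached the limit of a mean of 0.1 FPKM only through its 11-week libraries, with means of 0.329 FPKM at 11 weeks and 0.0575 FPKM at 7 weeks. ENSGALG00000047355 fell below the fold threshold without white replicate 1 or yellow replicate 4 of 11 weeks or without white replicate 2 of 7 weeks (0.83 to 0.92). ENSGALG00000046681 did so without white replicate 1 or 4 or yellow replicate 1 or 4 of 11 weeks, and without white replicate 1 or 3 or yellow replicate 3 of 7 weeks (0.70 to 1.00).

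Among the named genes below the fold threshold, SPIN1W was at 4.83, 5.49 and 6.03 FPKM at 11 weeks and at 1.88, 2.65 and 4.45 FPKM at 7 weeks. The ages did not overlap in FPKM as deposited, and the log2 fold change was 0.97 (SE 0.12, adjusted p = 3.29e-05 from limma). It passed the fold threshold without white replicate 2 (1.03) or yellow replicate 4 (1.04) of 7 weeks. Relative to the median of all genes it was 0.52, with median-of-ratios scaling 0.53, and with quantile normalization 0.22 (adjusted p = 0.0557 from limma). UBE2R2 was at 13.1, 14.4 and 14.5 FPKM at 11 weeks and at 7.88, 9.33 and 11.2 FPKM at 7 weeks. In FPKM as deposited this was again without overlap (0.57, SE 0.07, adjusted p = 3.39e-05 from limma). Relative to the median of all genes this was 0.13. It was 0.12 with median-of-ratios scaling (adjusted p = 0.116 from limma) and 0.22 with quantile normalization. Smad7b was at 1.86 to 2.62 FPKM at 11 weeks and 1.92 to 2.14 FPKM at 7 weeks. Its log2 fold change of 0.15 (SE 0.12, adjusted p = 0.303 from limma) was -0.29 relative to the median of all genes. It turned to -0.28 with median-of-ratios scaling and to -0.74 with quantile normalization.

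In FPKM as deposited, the fall with age lay in few loci, 8 of the 34 tested. With median-of-ratios scaling 14 of the 34 were lower at 11 weeks, and with quantile normalization 15. ENSGALG00000043838 (W:816061-817282) was at 3.14, 5.54 and 7.50 FPKM at 11 weeks and at 12.2, 13.5 and 15.9 FPKM at 7 weeks. The ages did not overlap, and its log2 fold change of -1.38 (SE 0.18, adjusted p = 4.15e-05 from limma) was the only call in the direction of lower. The two-sided exact permutation test of mean FPKM gave p = 0.00216 for it, the smallest that 6 libraries against 6 can give. It passed both thresholds under every alternative run, with values between -1.87 and -1.21. ENSGALG00000041500 had a larger fall but was not called (-1.82, SE 0.97, adjusted p = 0.115 from limma). Its level in the yellow groups was set by single libraries.

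Wpkci-7 was at 217, 237 and 313 FPKM at 11 weeks and at 346, 374 and 407 FPKM at 7 weeks, a log2 fold change of -0.62 (SE 0.08, adjusted p = 5.44e-05 from limma), or -1.06 relative to the median of all genes. ENSGALG00000040263 was at 173, 190 and 197 FPKM at 11 weeks and at 295, 311 and 321 FPKM at 7 weeks, a log2 fold change of -0.72 (SE 0.05, adjusted p = 8.00e-07 from limma), or -1.16 relative to that median. In FPKM as deposited, both were lower at 11 weeks without overlap, by less than the fold threshold. Over the alternatives run, the log2 fold change of Wpkci-7 was between -1.07 and -0.22. That of ENSGALG00000040263 was between -1.17 and -0.35, so both ranges reached past the fold threshold. RPL17 on Z, whose span holds the same small RNA label, was at 1127 to 1386 FPKM at 11 weeks and at 1935 to 2769 FPKM at 7 weeks (-0.94, SE 0.09, adjusted p = 6.76e-06 from limma). ENSGALG00000047904 was also lower by adjusted p, at 2.28 to 2.998 FPKM at 11 weeks and 2.89 to 5.14 FPKM at 7 weeks (-0.51, SE 0.12, adjusted p = 0.00207 from limma), with overlap.

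The summed level of each list of cell type markers overlapped between the ages, while some single markers did not overlap. The 6 keratinocyte genes summed to 1099 to 1540 FPKM at 11 weeks and 1261 to 1669 FPKM at 7 weeks. Among them TP63, a regulator of epidermal progenitors, was at 43.9 to 66.6 FPKM at 11 weeks and 4.57 to 19.6 FPKM at 7 weeks, and the desmosome gene DSP at 115 to 308 FPKM at 11 weeks and 57.1 to 112 FPKM at 7 weeks. The basal keratin gene KRT14 stood the other way, at 78.2 to 151 FPKM at 11 weeks and 207 to 258 FPKM at 7 weeks, and KRT5, KRT6A and KRT75 overlapped. The 3 pulp collagen genes summed to 1029 to 2603 FPKM at 11 weeks and 1125 to 1885 FPKM at 7 weeks. The 3 melanocyte genes found of 4 summed to 104 to 502 FPKM at 11 weeks and 178 to 1514 FPKM at 7 weeks. The 3 blood genes summed to 14.6 to 135 FPKM at 11 weeks and 49.1 to 155 FPKM at 7 weeks. Among them PTPRC was at 1.45 to 3.43 FPKM at 11 weeks and 0.504 to 1.06 FPKM at 7 weeks, without overlap, while HBBA and HBA1 overlapped. Of the 3 muscle genes, MYH1A was near 0 and the sum was 9.69 to 34.6 FPKM at 11 weeks and 13.8 to 27.2 FPKM at 7 weeks. The part of these cell types in the age differences was not tested, and in whole follicles a change in the number of expressing cells and a change in RNA per cell cannot be told apart.

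**Figure D3:**
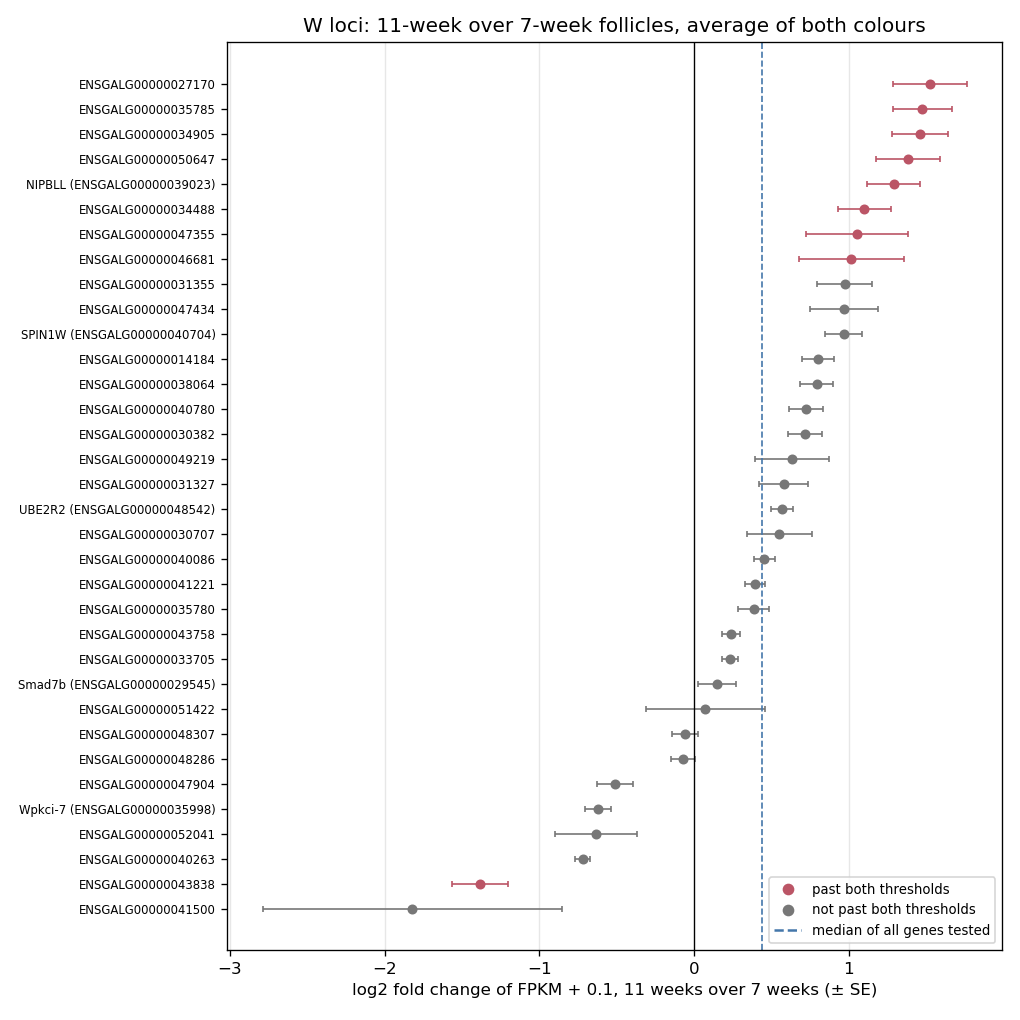
Log2 fold change of FPKM + 0.1 at 11 weeks over 7 weeks, averaged over both colours, for the 34 W loci tested (points, with bars of 1 SE), ordered by size. Red points are the 9 loci past both thresholds, the solid line marks 0 and the dashed line marks the median of all genes tested (0.44). Wpkci-7 and ENSGALG00000040263 lie left of 0, and NIPBLL and SPIN1W lie right of the dashed line.

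The W copies were then set beside Z. A list of 28 Z genes with a W copy, drawn up from general knowledge of birds, was searched by symbol, 12 were found on Z and 11 of them were expressed highly enough to be tested. At 11 weeks against 7 weeks 3 of the 11 were called, all higher: SPIN1Z (1.29, SE 0.12), the nuclear import receptor gene TNPO1 (1.47, SE 0.21) and the zinc finger gene ZNF131 (1.22, SE 0.15), beside 25% of all genes called higher and 28% called in either direction. By adjusted p alone 7 were higher and 2 lower, beside 51.9% and 16.9% of all genes. The 2 lower genes were RPL17 and BTF3 (-0.42, SE 0.05), and BTF3 encodes a subunit of the nascent polypeptide-associated complex. The median log2 fold change was 0.57 over the W loci, 0.52 over these Z genes and 0.44 over all genes.

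Only UBE2R2 and SPIN1 had a symbol on both chromosomes. UBE2R2 on Z (ENSGALG00000001668) was at 20.4 to 26.4 FPKM at 11 weeks and at 11.5 to 17.6 FPKM at 7 weeks. The W copy made up 38.0% ± 2.28 of the summed FPKM of the pair at 11 weeks and 40.9% ± 2.59 at 7 weeks (SD, n = 6 each), with overlap. In every library the W copy was below the Z copy, and its share over all libraries was between 35.1% and 44.4%.

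SPIN1Z was at 13.2 to 19.6 FPKM at 11 weeks and at 4.63 to 8.06 FPKM at 7 weeks. SPIN1W made up 26.6% ± 2.52 of the pair at 11 weeks and 31.1% ± 3.14 at 7 weeks (SD, n = 6 each), and the ages overlapped. In a test added after the design was fixed, a two-sided exact permutation test of this difference of -4.47 percentage points gave p = 0.0238, or 0.143 adjusted over the 6 comparisons of shares made, and that of UBE2R2 gave p = 0.0758. At 7 weeks its share was 31.4, 33.4 and 35.6% in yellow and 26.6, 30.5 and 29.2% in white follicles, without overlap. At 11 weeks it was 29.9, 23.6 and 26.7% in yellow and 24.6, 29.2 and 25.9% in white follicles, with overlap. Reads that fit both copies could be counted for either, and how they were treated is not given in the sources used here.

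**Figure D4:**
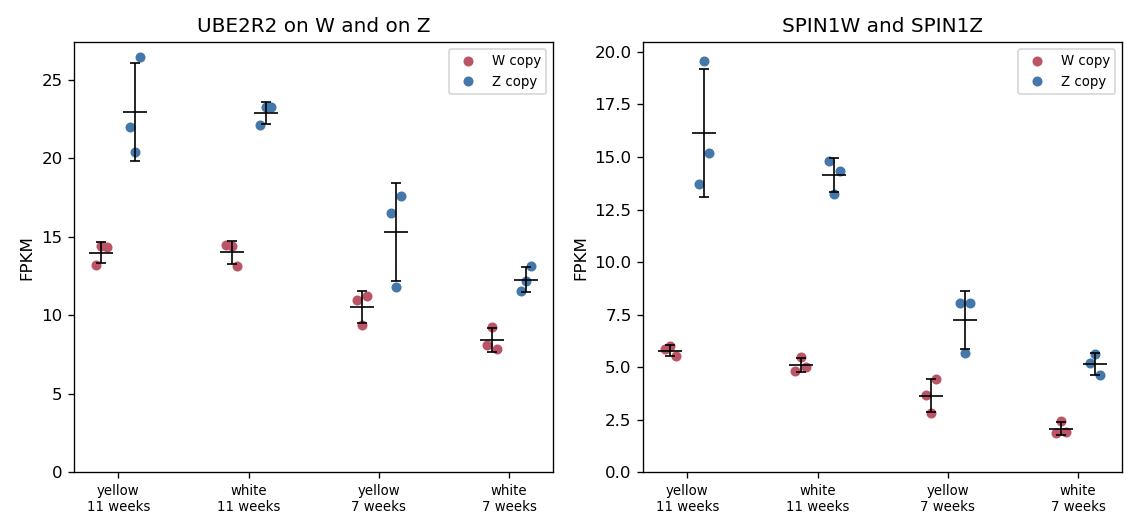
FPKM of the W copy (red) and the Z copy (blue) of UBE2R2 (left) and SPIN1 (right) in each group, 1 point per library, with a bar at the mean and whiskers of 1 SD (n = 3). The W copy is below the Z copy in every library, and both copies are higher at 11 weeks than at 7 weeks.

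No W locus was called between yellow and white follicles, with 3 libraries of each colour at each age, and most W loci stood somewhat higher in yellow at 7 weeks. At 7 weeks 33 W loci were tested by limma on 6 libraries, and 0 passed both thresholds or the adjusted p alone, beside 0.0288% of all 13895 genes (0.0144% higher and 0.0144% lower in yellow). At an unadjusted p of at most 0.05 there were 6 W loci, beside 15% of all genes. Yellow was higher than white for 27 of the 33, beside 63% of all genes, and for 24 to 29 under the other scalings. The median log2 difference was 0.25 over the W loci and 0.10 over all genes. Relative to that median of all genes, 22 W loci were higher and 11 lower in yellow, a comparison chosen after seeing the data. In FPKM as deposited, yellow and white libraries did not overlap for 9 W loci higher in yellow and 2 lower. This stood beside 12.1% and 8.04% of all genes. With median-of-ratios scaling, ENSGALG00000033705, ENSGALG00000043758 and ENSGALG00000035780 of the 9 overlapped (two-sided exact permutation p = 0.8, 0.5 and 0.4). The others of the 9 and the 2 lower loci kept 0.10, the value of groups without overlap. The share of all genes was not computed under that scaling.

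SPIN1W had the largest difference at 7 weeks, at 3.68, 2.84 and 4.45 FPKM in yellow and 1.88, 2.47 and 1.91 FPKM in white follicles. All 3 yellow libraries were above all 3 white libraries, with a log2 fold change of 0.77 (SE 0.22, adjusted p = 0.297 from limma). At 11 weeks SPIN1W was at 5.85, 6.03 and 5.51 FPKM in yellow and 4.83, 5.47 and 5.01 FPKM in white follicles, again without overlap (0.18, SE 0.12, adjusted p = 0.798 from limma). In FPKM as deposited, SPIN1W was the only W locus whose colours did not overlap in the same direction at both ages. This stood beside 1.97% of all genes with yellow above white and 1.18% with yellow below white in this way. With median-of-ratios scaling, a two-sided exact permutation test of SPIN1W at 11 weeks gave p = 0.2. Groups without overlap give 0.10, so the colours overlapped under that scaling. In FPKM as deposited, the average of SPIN1W over both ages was 0.47 on the log2 scale (SE 0.12, adjusted p = 0.111 from limma). SPIN1Z was at 8.05, 5.66 and 8.06 FPKM in yellow and 5.19, 5.64 and 4.63 FPKM in white follicles at 7 weeks, also without overlap, and its colours overlapped at 11 weeks.

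UBE2R2 on W was at 11.0, 9.40 and 11.2 FPKM in yellow and at 8.10, 9.27 and 7.88 FPKM in white follicles at 7 weeks. The yellow libraries were the higher without overlap, by a log2 fold change of 0.32 (SE 0.12, adjusted p = 0.325 from limma) and the colours overlapped at 11 weeks. ENSGALG00000030382 was at 4.04, 3.60 and 5.12 FPKM in yellow and 2.71, 3.17 and 2.40 FPKM in white follicles at 7 weeks (0.60, SE 0.19, adjusted p = 0.315 from limma). The 2 loci lower in yellow were ENSGALG00000047904, at 3.56, 2.89 and 3.04 FPKM in yellow and 5.14, 4.12 and 4.63 FPKM in white follicles (-0.53, SE 0.16, adjusted p = 0.304 from limma), and ENSGALG00000041221 (-0.27, SE 0.10, adjusted p = 0.325 from limma). An exact permutation test of 3 libraries against 3 cannot give a p below 0.10, which is what each locus without overlap reached.

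Wpkci-7 and ENSGALG00000040263 overlapped between the colours at both ages. The log2 fold changes of Wpkci-7 were 0.12 (SE 0.14) at 11 weeks and -0.07 (SE 0.09) at 7 weeks, and those of ENSGALG00000040263 were 0.03 (SE 0.07) at 11 weeks and -0.01 (SE 0.07) at 7 weeks. Quantile normalization turned both signs at 7 weeks.

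At 11 weeks 37 W loci were tested and 0 passed both thresholds or the adjusted p alone in limma, beside 0% of all 14806 genes. There was 1 W locus at an unadjusted p of at most 0.05, beside 7.23% of all genes. Yellow was higher than white for 26 of the 37, beside 56.4% of all genes, and for 19 to 25 under the other scalings. In FPKM as deposited, the colours did not overlap for 3 higher and 1 lower, beside 7.99% and 5.72% of all genes. The 3 were SPIN1W, ENSGALG00000040780 (0.21, SE 0.12) and ENSGALG00000034488 (0.43, SE 0.23). ENSGALG00000040780 (W:786-48077) was at 7.27, 7.69 and 7.70 FPKM in yellow and 6.95, 6.92 and 5.78 FPKM in white follicles.

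The locus lower in yellow at 11 weeks was ENSGALG00000047355 (W:4684870-4686574). It was listed at 0 in 2 yellow libraries and at 0.0751 FPKM in the other, against 0.993, 0.477 and 0.428 FPKM in white follicles. Its log2 fold change was -2.52 (SE 0.43, adjusted p = 0.377 from limma). The locus reached the limit of a mean of 0.1 FPKM only through its white libraries, with means of 0.633 FPKM in white and 0.0250 FPKM in yellow. That it was tested at all thus depended on the group where it was high. At 7 weeks it was at 0, 0 and 0.0161 FPKM in yellow and 0.246, 0 and 0.0823 FPKM in white follicles, with overlap at 0. The values were low in every library and their read support is not known.

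In the fit of all 12 libraries, 0 of 34 W loci passed both thresholds or the adjusted p alone for the average colour difference in limma, beside 0.206% and 0.412% of all 14553 genes. Yellow was higher for 29 of the 34, beside 62.1% of all genes, and for 23 to 28 under the other scalings, and 4 had an unadjusted p of at most 0.05, beside 17.3% of all genes. ENSGALG00000047355 came nearest, at -1.67 (SE 0.33, adjusted p = 0.0652 from limma). Here too it reached the limit of a mean of 0.1 FPKM only through its white libraries. ENSGALG00000047355 passed both thresholds without yellow replicate 3 of 7 weeks (adjusted p = 0.0488 from limma), a fit that called 88 of all genes against 30 as reported. The colour difference itself was not shown to change with age for any W locus: 0 of 34 passed in limma, beside 0% of all genes, with 6 at an unadjusted p of at most 0.05, beside 6.69%. The smallest adjusted p was 0.731, for ENSGALG00000041221. It was at 54.8, 52.8 and 49.1 FPKM in yellow and 46.5, 46.6 and 49.7 FPKM in white follicles at 11 weeks, and at 36.3, 32.2 and 35.1 FPKM in yellow and 44.5, 36.8 and 44.1 FPKM in white follicles at 7 weeks.

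**Figure D5:**
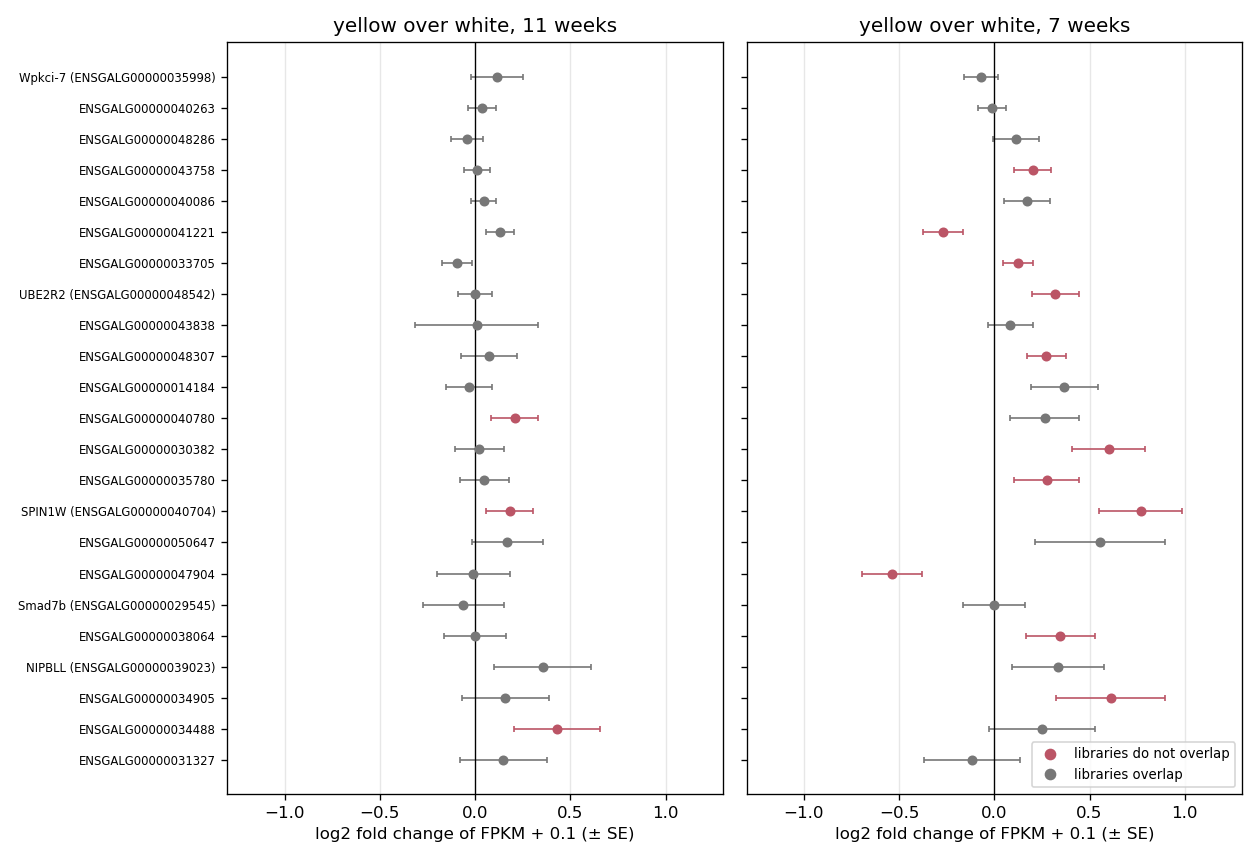
Log2 fold change of FPKM + 0.1 in yellow over white follicles at 11 weeks (left) and 7 weeks (right) for the 23 W loci with a mean of at least 1 FPKM (points, with bars of 1 SE). Red points are loci whose 3 yellow and 3 white libraries do not overlap, and SPIN1W is red in both panels (0.18 and 0.77).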

How the data were processed

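RNA from feather follicles was sequenced as 12 libraries. According to the study's methods the reads were filtered, aligned to GRCg6a with TopHat2 on a Bowtie2 version 2.2.3 index, and counted per gene of Ensembl release 96 with HTSeq version 0.6.0. The authors deposited FPKM per gene and library, without read counts, so the DEGseq test of the study was not used.

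After addition of 0.1 and log2 transformation, the FPKM were fitted by limma (version 3.58.1, R version 4.3.3, eBayes with trend and p-values adjusted by Benjamini-Hochberg over all genes tested), for genes with a mean of at least 0.1 FPKM over the libraries of the fit. Colour was fitted within each age on 6 libraries; age, the average colour difference and the difference between the colour differences were fitted on all 12 as 4 groups. Single loci were also tested by exact permutation of mean FPKM (scipy version 1.17.1, two-sided). The fits were tested on simulated data. The members and gene lists were chosen with earlier results of these data known. Named loci are those with a mean of at least 1 FPKM, a call in any comparison, a gene symbol, or colours that do not overlap in the same direction at both ages. Alternatives were other pseudocounts, filters, scalings and eBayes settings, replicate blocks, a shared spread, no fold threshold and leaving out each library.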

Additional observations from a re-analysis of the deposited data

How the results depend on the processing

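Among 38 results for single loci, 780 of 839 alternative values kept their direction and side of the thresholds, 35 lost a call, 15 gained one and 9 changed sign. The calls among these results were the 9 W loci and SPIN1Z, all between ages, and all 35 losses fell on them. The other results were not called as reported, so remaining uncalled counted as kept. The share kept therefore does not measure how firm the calls were. The number of W loci called between ages, 9 as reported, was 2 with a pseudocount of 1, 5 with a minimum mean of 1 FPKM, 4 with quantile normalization and 28 without the fold threshold, and 7 to 12 over the fits that each left out 1 library. Genes called over the whole table were 4071 as reported, 2219 with a pseudocount of 1 and 10011 without the fold threshold. Leaving out 1 library gave 3768 to 4345. A minimum mean of 1 FPKM gave 2586 higher and 408 lower, and quantile normalization 1543 higher and 1283 lower. The average colour difference gave 0 to 1 called W loci with each library left out, beside 2 to 88 of all genes and 30 as reported. The colour comparisons within each age gave 0 called W loci under every alternative run. Beside this, 0 to 18 of all genes were called at 7 weeks and 0 to 2 at 11 weeks. With FPKM of at least 1 as the limit, 19 W loci were detected in all libraries instead of 33. The ratio of the W sum at 11 weeks over 7 weeks, 0.804, was 0.912 as a share of all FPKM and 1.19 without the 2 highest loci.

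Median-of-ratios scaling turned the age difference of Smad7b to -0.28 and of ENSGALG00000041221 to -0.058 on the log2 scale, and quantile normalization that of Smad7b to -0.74. In mean FPKM, median-of-ratios scaling gave -8.83 for ENSGALG00000043758, -2.16 for ENSGALG00000041221, -5.73 for ENSGALG00000033705, -0.202 for ENSGALG00000035780 and -0.430 for Smad7b, each above 0 as reported. At 7 weeks the yellow minus white difference of Wpkci-7 was 0.073 with quantile normalization. That of ENSGALG00000040263 was 0.071 with quantile normalization, 0.016 with equal totals without high genes, 0.017 with the replicate block and -0.041 to 0.016 with 1 library left out. The cause of these changes was not tested.

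The libraries were not paired, since it is unclear whether repeated bird labels mark the same bird: the study's methods describe birds plucked at several ages, and its results describe separate individuals. Deviations from the group means of libraries with the same number correlated between colours at -0.0443 to 0.162 (5 pairs, mean 0.0814). Between ages of the same bird label they correlated at 0.0949 to 0.220 (5 pairs, mean 0.178). The 44 other pairs of libraries of different groups were at -0.281 to 0.208 (mean -0.0295). By the study's genotyping, each of the 5 repeated labels had the same Dominant white genotype at both ages. With the library number as a replicate block, limma called 0 W loci at 7 weeks, 0 at 11 weeks and 9 between ages, 8 of them among the 9 reported. With the bird label as a random replicate block, the 9 reported loci were called between ages. FPKM carry no counts, so the precision of low loci is not known.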
